A study of Homo sapiens with 6 samples.

Results

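The transcription factor ATF4 and 9 other genes of the integrated stress response (ATF3, ATF5, DDIT3, TRIB3, DDIT4, SESN2, CHAC1, STC2 and ADM2) are described here. They are 10 of the 29908 genes in the expression table, and all 10 were among the 14221 genes expressed above the filter of a mean of 0.5 FPKM. The members were chosen on their measured values, because the response was lower in DAGLA-knockdown cells in these same libraries. The difference between the groups is therefore given for the members as a description, without a test.

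RNA sequencing compared Hep3B-Con and Hep3B-KD cells, with 3 libraries in each group. Hep3B is an established human hepatocellular carcinoma (HCC) cell line, cultured in DMEM with 10% serum according to the sample labels, although the study's methods name MEM-alpha. A lentivirus delivered a short hairpin RNA against DAGLA (shDAGLA), the gene of a lipase that makes the endocannabinoid 2-AG, to Hep3B-KD cells. Hep3B-Con cells received the control virus (shControl), an empty vector according to the series record, although the study's methods name negative sequences. Whether the control virus carried a hairpin is therefore not clear. Both groups were transduced at a multiplicity of infection of 5 and selected with puromycin as stable cells. The contrast thus rests on 1 hairpin in 1 cell line, and any off-target action of the hairpin cannot be told apart from that of DAGLA loss. The series record calls the replicates biological, but whether they were separate transductions or passages of the same stable cells is not stated, so p-values measure the spread between these samples.

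In the integrated stress response, kinases that sense amino acid shortage, unfolded proteins, haem deficiency or double-stranded RNA phosphorylate the translation factor eIF2. Most translation then declines, while the messenger RNA (mRNA) of ATF4 is translated better because of short open reading frames ahead of its coding sequence. ATF4 protein, usually paired with another bZIP factor, switches on genes for amino acid supply, redox balance and growth control, and, through DDIT3 (CHOP), genes tied to cell death. In hepatocytes the pathway also controls secreted hormones such as FGF21. The data below are mRNA levels, and neither eIF2 phosphorylation nor ATF4 protein was measured in these libraries.

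Library totals, recovered from the FPKM values as the reads assigned to genes, ranged from 15861039 to 17572714 reads. They are not a reported sequencing depth. The deposited unit, FPKM, scales reads to the exon length of a gene and to the library total, so levels can be compared between genes roughly. The length that matched the values counts all annotated exons of a gene, also those of mRNA forms that may not be expressed. DAGLA itself was measured at 9.42, 9.40 and 9.02 FPKM in Hep3B-Con and at 4.62, 4.46 and 4.78 FPKM in Hep3B-KD, and fell by 0.99 on the log2 scale (standard error 0.0441, adjusted p = 5.25e-06, limma). Over all genes tested the log2 fold change had a median of 0.11, and 3388 genes (23.8%) were lower and 5133 (36.1%) higher in Hep3B-KD at an adjusted p under 0.05. With a fold change of at least 2 in addition, 418 genes (2.94%) were lower and 838 (5.89%) higher, a balance that became 536 and 622 with median centring and turned to 587 and 477 with quantile normalization. When libraries were centred on the median log ratio, the split became 4308 lower and 4064 higher, with quantile normalization 3902 and 4270, and with voom 4428 and 4372. All 8 hepatocyte markers on the list exceeded 0.5 FPKM, and their summed level ranged from 2745 to 2789 FPKM in Hep3B-Con and from 4548 to 4573 in Hep3B-KD. This sum rests on abundant secreted products such as ALB, and the hepatocyte transcription factor HNF4A instead fell by 0.35 on the log2 scale (adjusted p = 1.64e-05, limma). Of the 4 fibroblast markers 2 exceeded 0.5 FPKM, and the summed level ranged from 3.45 to 3.74 FPKM in Hep3B-Con and from 2.43 to 2.50 in Hep3B-KD. Endothelial markers summed to at most 0.385 FPKM, with VWF and CDH5 at 0 in every Hep3B-KD library, and the leukocyte marker PTPRC reached at most 0.0377 FPKM. Mitochondrially encoded genes took 4.64 to 4.74% of the reads in Hep3B-Con and 5.10 to 5.17% in Hep3B-KD. The part of these shifts in the values below was not tested.

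Sequences near the members are shown first, because ATF4 acts on a short DNA element and because the hairpin can act on mRNAs that match its seed. The C/EBP-ATF response element, a composite site for ATF4 with a C/EBP partner, was searched as TGATGNAA on both strands from 250 bases before to 50 bases after the RefSeq start site of each gene (GRCh38.p14), and all 10 members had such a promoter. It was found in 2 members, ATF3 and CHAC1, in 3.62% of all 35116 promoters and in 1.96% of the 13598 promoters of genes tested. The parts of these promoters that hold the element are printed 5′ to 3′ on the plus strand, with the matched letters in capitals.
ATF3 chr1:212565190-212565249: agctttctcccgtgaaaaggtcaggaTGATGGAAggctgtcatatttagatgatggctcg
CHAC1 chr15:40953236-40953295: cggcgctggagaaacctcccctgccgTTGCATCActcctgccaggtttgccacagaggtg
The match began at position -191 from the RefSeq start site in ATF3. In CHAC1 it began at -209 and was read on the minus strand, so the printed letters are its reverse complement. The longer form ATTGCATCA, each match of which also holds TGATGNAA on the other strand, was in none of the members and in 0.236% of all promoters. CCAAT, the box bound by NF-Y, was in 6 members (ATF3, DDIT3, DDIT4, SESN2, CHAC1 and STC2) and in 34.6% of all promoters. The E-box CACGTG was found in the ATF4 promoter only, against 7.26% of all promoters. The cyclic AMP response element TGACGTCA was in none of the members and in 1.85% of all promoters, and the ER stress response element (ERSE) was likewise in none and in 0.0769%. Among promoters of genes tested, the shares were 0.154% for ATTGCATCA, 35.1% for CCAAT, 9.66% for CACGTG, 2.80% for TGACGTCA and 0.132% for ERSE. These matches describe the letters of the windows. Sites outside them, also those at any other start site of a member, were not searched. The ATF3 window lies at the upstream end of that gene.

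The target of the hairpin, as the study lists it, is gcgacaacaagGCCTTCAa, which matched the DAGLA mRNA at chr11:61740504-61740522 (GRCh38, plus strand), in the coding part of exon 18 of 20 of DAGLA-201. The guide strand was taken as its reverse complement, tTGAAGGCcttgttgtcgc, with its seed, bases 2 to 8, in capitals. A site complementary to this seed reads GCCTTCA, the capitals in the target. It occurred in the longest annotated 3′ UTR of 2 of the 10 members, ATF5 and STC2, and in 14.6% of the 11189 genes tested that had such a UTR (GENCODE release 29, GRCh38). Both sites are given 5′ to 3′ on the strand of the mRNA, with the seed match in capitals.
ATF5 chr19:49933126-49933155: tcagctctggcGCCTTCAtccccctgcctc
STC2 chr5:173315988-173316017: tcctggggaatGCCTTCAaccaaaacacag
The site in ATF5 began at base 45 of a UTR of 843 bases, on the plus strand, and that in STC2 at base 1841 of 3134, on the minus strand. The values of these 2 genes are given with this match in view. The 3′ UTRs of the other 8 members, ATF4 among them, held no match.

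ATF4 (ENSG00000128272; GRCh38 chromosome 22, 39519695 to 39522685, plus strand), the effector of the pathway, was the most abundant member. Its level was 210, 222 and 217 FPKM in the 3 Hep3B-Con libraries and 128, 132 and 127 FPKM in the 3 Hep3B-KD libraries. The groups were far apart, with coefficients of variation of 2.80% and 1.78%. The means were 216 ± 6.06 (SD, n = 3) and 129 ± 2.30 FPKM (SD, n = 3), a log2 fold change of -0.74 (standard error 0.0252). Between 9076 and 9712 reads lay behind each Hep3B-Con value and between 5116 and 5321 behind each Hep3B-KD value. ATF4 mRNA stood at the 99.3rd percentile of Hep3B-Con levels over all genes tested, and its fold change at the 6.43rd percentile. In bulk libraries, less ATF4 mRNA in every cell and fewer cells with a high level cannot be told apart. The processed pseudogene ATF4P3 on chromosome 17, whose sequence derives from ATF4 mRNA, reached at most 1.91 FPKM, so that its own level was small beside that of ATF4. The pseudogenes ATF4P1, ATF4P2 and ATF4P4 were not analysed here.

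**Figure D1:**
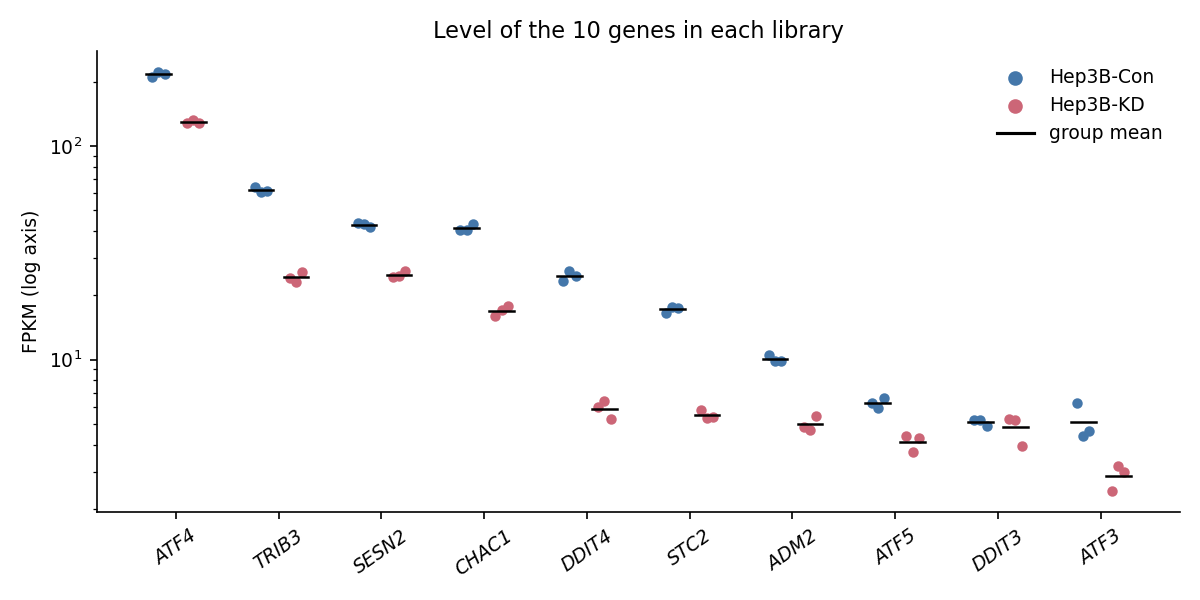
Level of each member in FPKM (log axis), ordered by the mean in Hep3B-Con. Each point is 1 library, 3 per group, and the black bar is the group mean. Hep3B-KD points lie below Hep3B-Con points for every member except DDIT3, whose groups overlap.

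The other transcription factors of the set were much less abundant. ATF3 (ENSG00000162772; chromosome 1, 212565334 to 212620777, plus strand), an early-response bZIP factor that ATF4 can induce, was measured at 6.27, 4.41 and 4.64 FPKM in Hep3B-Con and at 2.43, 3.19 and 2.98 FPKM in Hep3B-KD. The groups did not overlap, but Hep3B-Con replicate 1 stood above the other two and the replicates varied more than for any other member in that group. The means of 5.11 ± 1.01 and 2.87 ± 0.391 FPKM (SD, n = 3 each) gave a log2 fold change of -0.80 (standard error 0.157), which became -0.65 without Hep3B-Con replicate 1.

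ATF5 (ENSG00000169136; chromosome 19, 49928702 to 49933935, plus strand) encodes a bZIP factor whose translation is controlled in the same way as that of ATF4 and which has been tied to the mitochondrial stress response. The 3 Hep3B-Con values were 6.24, 5.92 and 6.65 FPKM, and the 3 Hep3B-KD values were 4.38, 3.71 and 4.28 FPKM. All Hep3B-KD values were lower, by a log2 fold change of -0.60 (standard error 0.0783). ATF5 carries the seed match printed above. In addition, 21.2% of its exon bases are shared with NUP62 on the opposite strand, a nuclear pore gene that fell from 28.2 to 25.1 FPKM (log2 fold change -0.17, adjusted p = 0.00495, limma), and reads of the overlap cannot be told apart because the strand setting of the counting is not given.

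DDIT3 (ENSG00000175197; chromosome 12, 57516588 to 57521737, minus strand), which encodes CHOP, the bZIP factor that links prolonged stress to cell death, was the exception. It was measured at 5.22, 5.24 and 4.92 FPKM in Hep3B-Con and at 5.26, 5.24 and 3.97 FPKM in Hep3B-KD. The groups overlapped, since Hep3B-KD replicates 1 and 2 lay at the level of the highest Hep3B-Con library and Hep3B-KD replicate 3 alone was lower. The log2 fold change of -0.10 (standard error 0.113) was below its own error and became 0.03 without that library. Only 107 to 120 reads lay behind a Hep3B-Con value and 86 to 110 behind a Hep3B-KD value, the fewest of any member. Of the DDIT3 exon bases, 27.2% overlap MARS on the opposite strand, a methionyl-tRNA synthetase gene at 57.6 ± 0.442 FPKM in Hep3B-Con and 42.5 ± 1.21 FPKM in Hep3B-KD (SD, n = 3 each). MBD6 on the opposite strand overlaps 4.44% of the DDIT3 exon bases. AC022506.1, on the same strand and not analysed here, overlaps 8.03% of them. How far reads from these genes entered the DDIT3 value was not tested.

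The members that act as regulators downstream of these factors, TRIB3, DDIT4 and SESN2, were higher in level than ATF3, ATF5 and DDIT3 in Hep3B-Con. TRIB3 (ENSG00000101255; chromosome 20, 362835 to 397559, plus strand), a pseudokinase that restrains AKT and feeds back on ATF4 and CHOP, was measured at 63.9, 61.0 and 61.2 FPKM in Hep3B-Con. In Hep3B-KD it stood at 24.1, 23.1 and 25.6 FPKM. Every Hep3B-KD library was below 50% of every Hep3B-Con library, and the log2 fold change was -1.35 (standard error 0.042), a 2.56-fold lower mean.

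DDIT4 (ENSG00000168209; chromosome 10, 72273920 to 72276036, plus strand) encodes REDD1, an inhibitor of mTORC1 that also responds to hypoxia and glucocorticoids. Its Hep3B-Con values of 23.3, 26.1 and 24.5 FPKM stood against 6, 6.38 and 5.27 FPKM in Hep3B-KD. This was the widest separation of the set, with means of 24.6 ± 1.38 and 5.89 ± 0.566 FPKM (SD, n = 3 each), a 4.19-fold lower mean and a log2 fold change of -2.05 (standard error 0.0771). Of its exon bases 41.2% overlap the antisense gene DDIT4-AS1, which was not analysed here.

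SESN2 (ENSG00000130766; chromosome 1, 28259527 to 28282491, plus strand), a leucine sensor that holds back mTORC1, was measured at 43.8, 43.1 and 41.7 FPKM in Hep3B-Con and at 24.4, 24.6 and 25.9 FPKM in Hep3B-KD. The groups were separate and the replicates close, and the log2 fold change of -0.78 (standard error 0.0335) was near that of ATF4.

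CHAC1 (ENSG00000128965; chromosome 15, 40952962 to 40956519, plus strand) encodes an enzyme that degrades glutathione and is a well known target of the ATF4 and CHOP pair. It was measured at 40.4, 40.3 and 43.3 FPKM in Hep3B-Con and at 16, 17.1 and 17.8 FPKM in Hep3B-KD. No Hep3B-KD library reached 50% of a Hep3B-Con library, and the log2 fold change was -1.28 (standard error 0.0483).

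Both secreted members were lower as well. STC2 (ENSG00000113739; chromosome 5, 173314713 to 173329503, minus strand), the glycoprotein hormone stanniocalcin 2, was at 16.6, 17.7 and 17.5 FPKM in Hep3B-Con and at 5.81, 5.35 and 5.39 FPKM in Hep3B-KD. Its mean was 3.13-fold lower, a log2 fold change of -1.63 (standard error 0.0469), the largest after DDIT4, in a gene that holds the seed match. ADM2 (ENSG00000128165; chromosome 22, 50481556 to 50486440, plus strand), also called intermedin, a peptide hormone of the calcitonin family, was at 10.6, 9.88 and 9.89 FPKM in Hep3B-Con and at 4.87, 4.70 and 5.45 FPKM in Hep3B-KD. The groups were separate, and the log2 fold change was -1.0 (standard error 0.0646).

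Over the set, the log2 fold change was below 0 in 10 of 10 members, with a median of -0.90 beside 0.11 for all genes tested. In 9 members every Hep3B-KD value was below every Hep3B-Con value, as in 26.3% of all genes tested. A mean FPKM at least 2-fold lower was found in 5 members (TRIB3, DDIT4, CHAC1, STC2 and ADM2). Among all genes tested 2.94% were at least 2-fold lower, but with an adjusted p under 0.05 required in addition. These counts of members follow from how the members were chosen. ADM2 lay at the edge, at 2.02-fold. Its log2 fold change was -0.98 after rescaling to the same FPKM sum, -0.89 with a pseudocount of 1 and -1.10 with median centring. The change was unequal within the set, from -2.05 for DDIT4 to -0.10 for DDIT3. The median ranged from -0.96 to -0.87 when single libraries were left out, while the difference of DDIT3 rested on Hep3B-KD replicate 3.

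**Figure D2:**
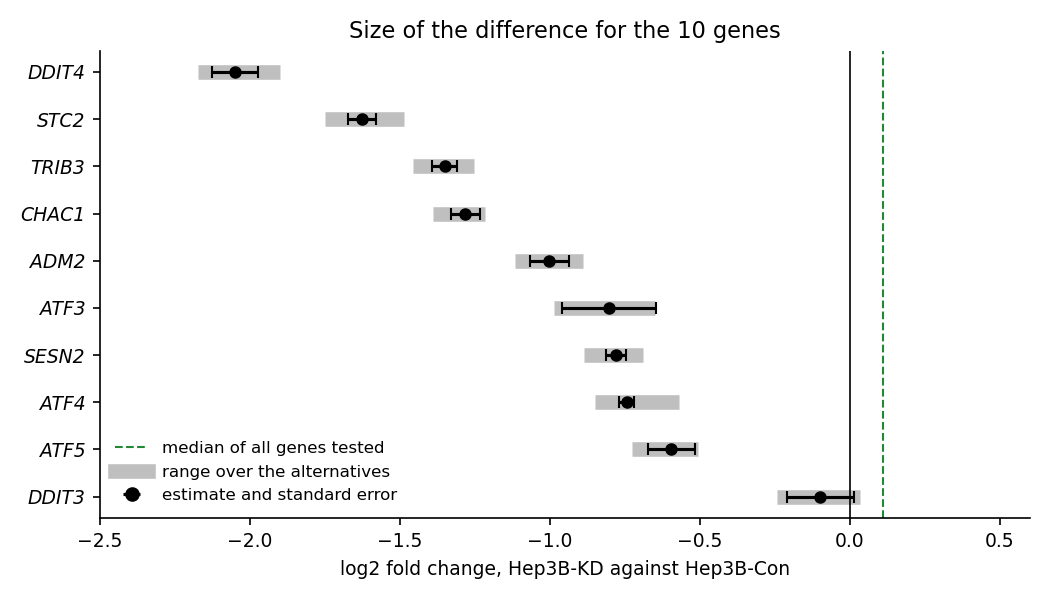
Log2 fold change of each member, Hep3B-KD against Hep3B-Con, on log2(FPKM + 0.1). Points are the values with their standard errors, grey bars are the range over the processing alternatives, and the dashed line is the median of all genes tested (0.11). The values run from -2.05 for DDIT4 to -0.10 for DDIT3, and only the range of DDIT3 crosses 0.

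The order of the levels also differed between the groups. In Hep3B-Con the members ranked, from the highest FPKM, as ATF4, TRIB3, SESN2, CHAC1, DDIT4, STC2, ADM2, ATF5, DDIT3 and ATF3, and the ranges of neighbours overlapped only between SESN2 and CHAC1 and between DDIT3 and ATF3. In Hep3B-KD, SESN2 and TRIB3 overlapped in second place, CHAC1 followed, and the 5 genes DDIT4, STC2, ADM2, DDIT3 and ATF5 formed a run in which each overlapped the next, between 4.12 and 5.89 FPKM on average. ATF3 was lowest, at 2.87 FPKM.

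Among the 4547 genes that averaged 10 FPKM or more, those whose pattern over the 6 libraries was nearest to that of ATF4, by the root mean square difference of centred log2 values, were KLHL23, LYPD6B, SLC20A1, NOLC1 and TUBB4B. The difference ranged from 0.0128 for KLHL23 to 0.0341 for TUBB4B. KLHL23 went from 28.0 to 16.9 FPKM and TUBB4B, a tubulin gene, from 313 to 183 FPKM. None of the 5 is on the lists of stress response genes used here, and with 2 groups the measure mainly reflects a like difference between the groups.

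Upstream of ATF4, the genes of the eIF2 kinases did not move in one direction. EIF2AK3 (PERK), the kinase that responds to unfolded proteins in the endoplasmic reticulum, was at 5.10, 5.11 and 5.97 FPKM in Hep3B-Con and at 3.76, 3.52 and 3.97 FPKM in Hep3B-KD. It fell by 0.51 on the log2 scale (standard error 0.0805, adjusted p = 0.00152, limma). EIF2AK2 (PKR), the sensor of double-stranded RNA, was at 3.13 ± 0.0698 and 4.12 ± 0.141 FPKM (SD, n = 3 each) and rose by 0.39 on the log2 scale (adjusted p = 0.000782, limma). EIF2AK1 (HRI), the haem-regulated kinase, and EIF2AK4 (GCN2), which binds uncharged tRNA, passed the test at log2 fold changes of 0.18 (adjusted p = 0.00167) and 0.23 (adjusted p = 0.00635), but neither did once libraries were centred on their median log ratio, and EIF2AK4 also did not with quantile normalization. GCN1, which GCN2 needs for its activation, fell by 0.19 and IMPACT, which competes for GCN1, rose by 0.40 on the log2 scale (limma adjusted p = 0.000176 and 0.000336). DELE1 and OMA1, which relay mitochondrial stress to HRI, did not pass the test, with log2 fold changes of -0.04 (adjusted p = 0.687) and 0.02 (adjusted p = 0.892).

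Subunits of eIF2 itself differed from each other. EIF2S3, the gamma subunit, was at 88.0, 86.6 and 86.1 FPKM in Hep3B-Con and at 36.6, 38.1 and 36.2 FPKM in Hep3B-KD, and fell by 1.23 on the log2 scale (standard error 0.0249, adjusted p = 2.81e-07, limma). It was the only gene among the 21 of the eIF2 lists to fall by 2-fold or more. EIF2S3 was also the only one of them with a seed match of the guide strand in its 3′ UTR. That match was in 14.6% of genes tested that had such a UTR, and whether it bears on the level of EIF2S3 was not tested. EIF2S2, the beta subunit, fell by 0.46 on the log2 scale (adjusted p = 4.33e-05), and EIF2S1, the alpha subunit that the kinases phosphorylate, rose by 0.24, from 17.9 to 21.2 FPKM (adjusted p = 0.00199). EIF2B3, a subunit of the exchange factor that phosphorylated eIF2 blocks, passed the test at -0.31 (adjusted p = 0.031), but its groups overlapped and the call was lost in 7 alternatives.

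The targeting subunits of the eIF2alpha phosphatase went opposite ways. PPP1R15A (GADD34), which is induced by the response and ends it, was at 20.8, 22.0 and 21.7 FPKM in Hep3B-Con and 16.2, 17.8 and 18.7 FPKM in Hep3B-KD, and fell by 0.29 on the log2 scale (adjusted p = 0.00333, limma). PPP1R15B (CReP), the constitutive counterpart, rose by 0.55, from 24.1 ± 1.03 to 35.4 ± 1.39 FPKM (SD, n = 3 each; adjusted p = 5.19e-05). Among the catalytic subunits PPP1CB rose by 0.37, while the smaller values of PPP1CA (-0.15) and PPP1CC (0.08) changed sign under quantile normalization and under median centring or voom, respectively. Over the 21 genes of the 3 lists, 8 fell and 8 rose, or 38.1% each, beside 23.8% and 36.1% of all genes tested, and the median log2 fold change was -0.04. Median centring gave 10 lower and 5 higher. PPP1R15A is also counted among the ATF4 or CHOP targets below.

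**Figure D3:**
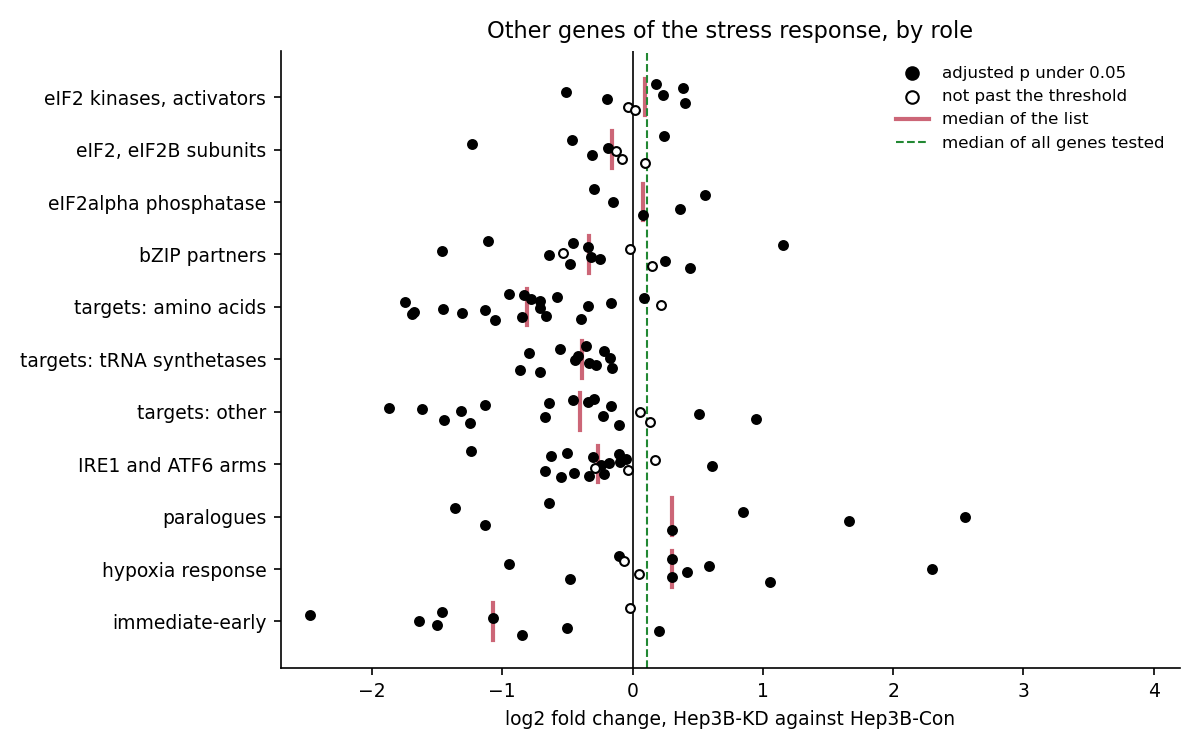
Log2 fold change of each tested gene on the pathway lists (points), Hep3B-KD against Hep3B-Con. Filled points have an adjusted p under 0.05 (limma), open points do not, short bars are list medians and the dashed line is the median of all genes tested. The ATF4 target lists lie mostly below 0, with medians of -0.81, -0.39 and -0.40, while the eIF2 lists lie on both sides.

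The listed genes downstream of ATF4 were nearly all lower. Of 50 known ATF4 or CHOP targets outside the set of 10, all expressed above the filter, 44 fell (88.0%) and 3 rose (6%), beside 23.8% and 36.1% of all genes, with a median of -0.61 on the log2 scale (limma). Of these, 13 fell by at least 2-fold, beside 2.94% of all genes. The call held in every processing alternative that included the gene for 40 of the 44. ASNS is counted among these 40, but a minimum mean of 1 FPKM left it out and gave 43 lower targets. The targets share a contrast with the members, and the list was drawn up with earlier results of these libraries known. The count therefore describes the listed genes only, and whether their lower levels run through ATF4 was not tested. Without the 5 targets that hold a seed match (PSPH, PYCR1, GPT2, SLC7A11 and SLC3A2), 40 of 45 fell and 2 rose.

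Among 20 genes of amino acid synthesis and transport, 18 fell and PSPH alone rose. The proline synthesis gene PYCR1 was at 17.8, 17.9 and 16.8 FPKM in Hep3B-Con and at 5.11, 4.92 and 5.39 FPKM in Hep3B-KD, and fell by 1.75 on the log2 scale (standard error 0.0466, adjusted p = 7.12e-07). The cationic amino acid transporter SLC7A1 fell from 39.7 ± 0.579 to 12.2 ± 0.307 FPKM (SD, n = 3 each; log2 fold change -1.70, adjusted p = 1.39e-07), and the leucine transporter SLC7A5 from 174 ± 0.805 to 54.3 ± 2.77 FPKM (-1.68, adjusted p = 3.66e-07). SLC3A2, the heavy chain that SLC7A5 and SLC7A11 need at the membrane, fell by 1.31, and SLC7A11, which imports cystine for glutathione, by 1.13 on the log2 scale. The serine and one-carbon genes PSAT1, SHMT2, MTHFD2 and PHGDH fell by 0.83, 0.78, 0.71 and 0.58. Other transporters of the list fell by 0.85 (SLC1A5), 0.66 (SLC1A4) and 0.40 (SLC38A2), and the proline synthesis gene ALDH18A1 by 0.17, a call lost with quantile normalization. ASNS, asparagine synthetase, a classic ATF4 target, was hardly expressed, at 0.703, 0.736 and 0.796 FPKM in Hep3B-Con and 0.368, 0.363 and 0.284 FPKM in Hep3B-KD, with 21 to 59 reads per library, and fell by 0.95 on the log2 scale (adjusted p = 0.011). The last serine synthesis step, PSPH, stood at 82.8 and 88.1 FPKM, and its rise of 0.09 on the log2 scale (adjusted p = 0.0107) turned below 0 with median centring and with voom. The transsulfuration gene CTH did not pass the test (0.22, adjusted p = 0.174).

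All 12 cytosolic tRNA synthetase genes on the list fell, by less than 2-fold each, with a median log2 fold change of -0.39. WARS, the tryptophanyl synthetase, went from 20.9, 21.7 and 21.2 FPKM to 11.6 FPKM in all 3 Hep3B-KD libraries, and so fell by 0.87 on the log2 scale (adjusted p = 1.39e-06). GARS fell from 155 ± 5.77 to 89.2 ± 1.07 FPKM (log2 fold change -0.79, adjusted p = 2.45e-06) and YARS from 28.7 ± 0.201 to 17.5 ± 0.686 FPKM (-0.71, adjusted p = 6.76e-06; SD, n = 3 each). The smallest of the values named here was that of TARS, at -0.16 (adjusted p = 0.00152), which did not pass with quantile normalization.

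Of 18 other effectors, 14 fell and 2 rose. GDF15, a stress hormone that lowers appetite, was at 155, 124 and 124 FPKM in Hep3B-Con and at 33.0, 39.4 and 36.8 FPKM in Hep3B-KD, and fell by 1.87 (standard error 0.103, adjusted p = 1.21e-05). FGF21, the hepatic fasting hormone, was at 2.51, 2.93 and 2.28 FPKM in Hep3B-Con and at 0.863, 0.568 and 0.917 FPKM in Hep3B-KD, on 12 to 67 reads per library, and fell by 1.62 (adjusted p = 0.000368). With STC2 and ADM2, these are secreted products whose mRNA levels were lower in every Hep3B-KD library, and INHBE, a liver activin subunit, fell as well, from 84.8 to 33.9 FPKM (adjusted p = 2.52e-07). The autophagy gene MAP1LC3B fell by 1.45, HERPUD1, of protein degradation at the endoplasmic reticulum, by 1.25 and EIF4EBP1, a brake on cap-dependent translation, by 1.13 on the log2 scale. The oxidoreductase ERO1A rose from 10.8 ± 0.573 to 20.9 ± 0.198 FPKM (SD, n = 3 each; log2 fold change 0.94, adjusted p = 5.70e-06), and KLHL24 rose by 0.51 (adjusted p = 0.00021). Among CHOP targets of cell death, BBC3 (PUMA) fell by 0.67 (adjusted p = 0.00236) and TNFRSF10B (DR5) by 0.23 (adjusted p = 0.00332). SQSTM1 (log2 fold change 0.13, adjusted p = 0.548) and VLDLR (0.06, adjusted p = 0.467) did not pass the test.

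The bZIP factors that pair with ATF4 or CHOP were also unequal. Of 14, 8 fell (57.1%) and 3 rose (21.4%), beside 23.8% and 36.1% of all genes tested, with a median log2 fold change of -0.33. CEBPB, CEBPG and JDP2, which all fell, are also counted among the ATF4 or CHOP targets above. CEBPA, a hepatocyte factor, fell from 33.1 ± 0.955 to 15.3 ± 0.706 FPKM (SD, n = 3 each; log2 fold change -1.11, adjusted p = 2.66e-06), CEBPB by 0.46 (adjusted p = 0.00889) and CEBPG, a main partner of ATF4, by 0.34 (adjusted p = 0.000113). JUNB was at 96.9, 68.3 and 72.8 FPKM in Hep3B-Con and at 24.9, 35.8 and 25.4 FPKM in Hep3B-KD and fell by 1.47 (adjusted p = 0.000467). JDP2, related to ATF3, fell by 0.64 (adjusted p = 0.000568), while CREB1 rose by 0.44 (adjusted p = 0.000868). The rises of CEBPD, from 4.73, 2.56 and 2.29 to 5.04, 8.69 and 7.39 FPKM (1.15, adjusted p = 0.0161), and of ATF1 (0.25, adjusted p = 0.0294) were lost in 5 and 9 alternatives.

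Close relatives of the members were found on both sides. Of 7 paralogues expressed above the filter, 3 fell (42.9%) and 4 rose (57.1%), beside 23.8% and 36.1% of all genes tested. JDP2, which fell, is also counted among the bZIP partners and among the targets. TRIB1, which like TRIB3 encodes a Tribbles pseudokinase, was at 21.4, 19.3 and 18.5 FPKM in Hep3B-Con and at 6.76, 7.87 and 8.17 FPKM in Hep3B-KD. On the log2 scale its difference was -1.37 (adjusted p = 1.98e-05, limma), beside -1.35 for TRIB3. CHAC2, the constitutive relative of CHAC1, fell from 9.20 to 4.15 FPKM (-1.13, adjusted p = 4.07e-05). The other sestrins went the other way from SESN2. SESN3, a target of FOXO factors, was at 1.82, 1.78 and 2.03 FPKM in Hep3B-Con and at 11.6, 11 and 11.9 FPKM in Hep3B-KD, so that it rose 6.11-fold (log2 fold change 2.55, standard error 0.0642, adjusted p = 5.89e-07), and SESN1, a target of p53 and FOXO, rose from 1.81 to 3.31 FPKM (0.84, adjusted p = 0.000344). In Hep3B-KD the level of SESN3 was thus closer to that of SESN2, at 11.5 beside 24.9 FPKM, than in Hep3B-Con, at 1.88 beside 42.9 FPKM. DDIT4L (REDD2) rose from 0.779 ± 0.148 to 2.65 ± 0.171 FPKM (SD, n = 3 each; 1.66, adjusted p = 0.000106), on 32 to 137 reads per library, while DDIT4 was lower, and ADM, adrenomedullin, rose by 0.30 (adjusted p = 0.000993) while ADM2 was lower. TRIB2 had 0 reads in each Hep3B-Con library, which allows up to 3 by counting error, and 2 to 9 in Hep3B-KD, and was below the filter, and STC1 was not analysed here.

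**Figure D4:**
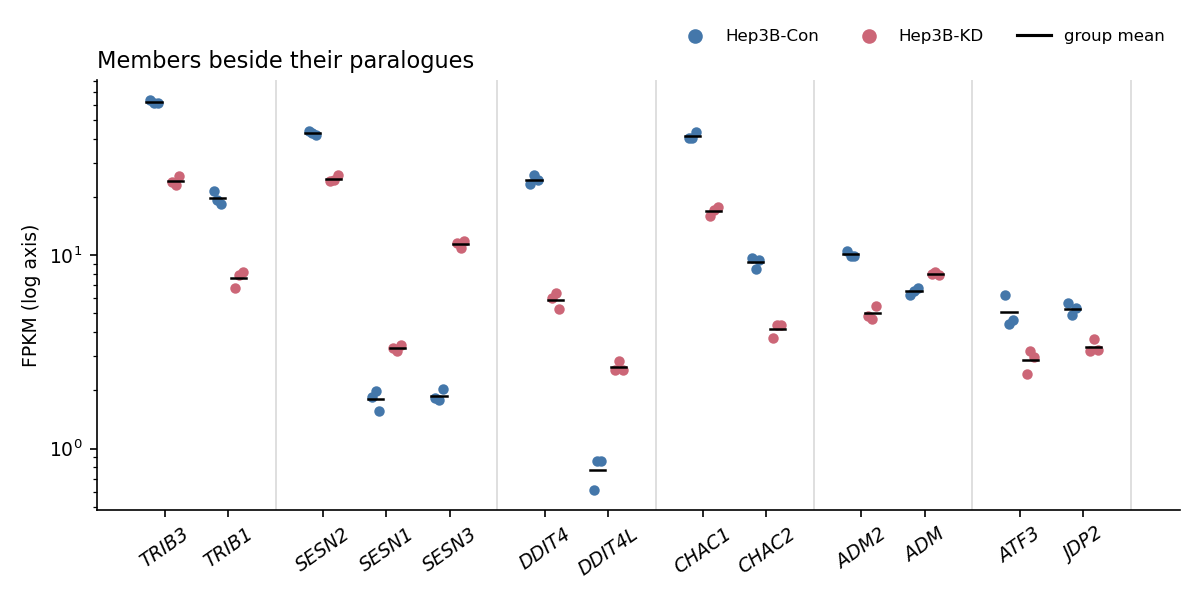
Level in FPKM (log axis) of 6 members, each followed by its paralogues, in the 6 libraries. Points are libraries, 3 per group, and black bars are group means. TRIB1, CHAC2 and JDP2 are lower in Hep3B-KD like TRIB3, CHAC1 and ATF3, whereas SESN1, SESN3, DDIT4L and ADM are higher.

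The remaining arms of the unfolded protein response, which run through IRE1 and ATF6 rather than eIF2, were also mostly lower, with smaller values. Of 18 genes 14 fell (77.8%) and 1 rose (5.56%), beside 23.8% and 36.1% of all genes tested, with a median log2 fold change of -0.27. Only ERN1, which encodes IRE1 and holds a seed match, fell by at least 2-fold, from 5.97 to 2.47 FPKM (log2 fold change -1.24, adjusted p = 9.09e-06). XBP1, whose mRNA is spliced by IRE1, fell by 0.50 (adjusted p = 2.33e-05), MANF by 0.67 (adjusted p = 3.47e-05), ATF6B by 0.63 (adjusted p = 1.69e-05) and the chaperone HSPA5 (BiP) by 0.31, from 303 ± 4.03 to 245 ± 1.01 FPKM (SD, n = 3 each; adjusted p = 7.57e-06). SEL1L, of degradation at the endoplasmic reticulum, rose by 0.61 (adjusted p = 6.64e-06). HSP90B1 stood at -0.05 (adjusted p = 0.0299), a call lost in 8 alternatives, and was called higher, not lower, with quantile normalization. The calls of ATF6 and DNAJC3 were lost in 7 and 8 alternatives, and those of PDIA6 and CALR with quantile normalization. Rescaling to the same FPKM sum and quantile normalization each gave 11 lower genes on this list, while median centring and voom each gave 16. The spliced form of XBP1 cannot be seen in values per gene. The difference in size between the ATF4 targets and this list was not tested.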

How the data were processed

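RNA of 6 Hep3B samples was sequenced, 3 per group as labelled. The authors deposited FPKM values in 1 table of 29908 Ensembl genes, with 0 columns of other samples. The submitters' processing notes list TopHat2 2.0.12, Bowtie2 2.0.6 and build GRCh37. The counting tool, annotation and strand setting are not given in the sources used here. With exon lengths of GENCODE release 29 (GRCh38), 100% of the 138115 values above 0 came out within 0.01 of a whole read, so that coordinates here follow that annotation. Where a symbol occurred more than once (382 rows), the row with the highest mean was used.

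Genes that averaged 0.5 FPKM or more were analysed as log2(FPKM + 0.1), a scale on which changes of low genes are understated, with limma 3.58.1 (lmFit, eBayes with trend) in R 4.3.3, without a replicate block, and Benjamini-Hochberg adjustment over all 14221 genes. Adjusted p-values in the text are from this fit and calls are at an adjusted p under 0.05. The fit was also run on simulated data with few changed genes, in equal numbers up and down. That setting does not cover the many changes and the dependence on scaling found here. Tables were handled in Python 3.11.15 with pandas 2.3.3.

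The members and the gene lists were chosen with earlier results of these data known. Named genes were the members, DAGLA, the eIF2 kinases, EIF2S1, PPP1R15A and PPP1R15B, the 3 called genes with the largest change in each direction of each list, and the 5 genes nearest in pattern to ATF4, and other genes of a list are given by value. A count test such as edgeR was not run. Reads recovered from FPKM went into limma's voom as an alternative. Further alternatives were pseudocounts of 1 and 0.01, no filter, a minimum mean of 1 FPKM, 3 other scalings, eBayes without trend, the replicate number as a block and each library left out. CD68 and CD3E were not analysed here. Counting limits cover counting error only.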

Additional observations from a re-analysis of the deposited data

How the results depend on the processing

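Of the members, 9 kept a log2 fold change below 0 in each alternative, and DDIT3 turned to 0.03 without Hep3B-KD replicate 3. The median over the members was -0.82 with a pseudocount of 1, -1.01 with median centring, -1.04 with quantile normalization and -1.02 with voom, and -0.96 to -0.87 with single libraries left out. The median of all genes was 0.14 after rescaling to the same sum, 0.0059 with median centring and 0.0147 with quantile normalization, and 10 of 10 members were below 0 in each. A pseudocount of 1 left 248 lower and 255 higher genes with a fold of at least 2, and quantile normalization 587 lower and 477 higher. Median centring gave 5 higher eIF2 genes and quantile normalization 2 higher unfolded protein response genes. Leaving out single libraries gave 43 to 44 lower ATF4 targets, 3 higher, 7 to 8 lower and 7 to 8 higher eIF2 genes, and 11 to 13 lower unfolded protein response genes. DAGLA ranged from -1.02 to -0.97. The cause of these shifts was not tested.

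With a replicate block, 3153 genes were lower and 4766 higher, and 43 ATF4 targets fell and 3 rose. Deviations of same-numbered libraries from their group means correlated at -0.0134, -0.0656 and -0.0011, so no shared effect of the replicate number was seen. Whether same-numbered samples were handled together is not stated, and these values cannot decide it. The count without seed-matched genes was chosen after seeing the data. Few reads lay behind DDIT3, ASNS, FGF21 and DDIT4L, which limits their precision, and 1 hairpin and 1 cell line limit all values.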

Other observations

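Immediate-early genes, which respond within minutes to growth factor and stress signals and of which JUN and JUNB are also on the list of bZIP partners, were mostly lower. Of 9 expressed above the filter, 7 fell (77.8%), beside 23.8% of all genes tested, and KLF6 alone rose (11.1%, beside 36.1%; log2 fold change 0.20, adjusted p = 0.00257, limma), with a median log2 fold change of -1.07. EGR1 was at 17.8, 14.6 and 14.8 FPKM in Hep3B-Con and at 2.85, 2.26 and 3.17 FPKM in Hep3B-KD and fell by 2.48 on the log2 scale (adjusted p = 1.14e-05). IER3 fell by 1.64, the MAP kinase phosphatase DUSP1 by 1.5 and MYC by 0.85. JUN did not pass the test, at -0.02 (adjusted p = 0.838).

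Hypoxia response genes, which share DDIT4 as a known target with ATF4, included genes that rose and genes that fell. Of 11 expressed above the filter, 6 rose (54.5%) and 3 fell (27.3%), beside 36.1% and 23.8% of all genes tested. NDRG1 rose 5.08-fold, from 1.82, 2.41 and 2.23 FPKM to 11.1, 11 and 10.7 FPKM (log2 fold change 2.30, adjusted p = 4.57e-06), PFKFB4 by 1.06 and EGLN3 by 0.58 on the log2 scale. The glucose transporter SLC2A1 fell by 0.95 (adjusted p = 1.23e-05) and LDHA by 0.48 (adjusted p = 1.87e-06). VEGFA passed at -0.10 (adjusted p = 0.0481), a call lost in 9 alternatives. VEGFA is also counted among the ATF4 or CHOP targets, and ADM among the paralogues.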
